A study of Homo sapiens with 11 samples.

Results

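The cadherin superfamily was represented by 97 genes on 100 probes, of 14941 named genes and 22464 probes on the array. All genes whose symbol begins with CDH and a digit, CDHR, PCDH, DSG and a digit, DSC and a digit, CELSR, or FAT and a digit were taken. RT4 cells, a line from a transitional cell papilloma of the human bladder, were grown on plastic (2 arrays, labeled replicates 1 and 2) or on Matrigel, a basement membrane extract of a mouse sarcoma that the study calls cancer-remodeled extracellular matrix (crECM). The 9 crECM arrays came from cells moved from plastic onto the surface of the gel in McCoy's medium with fetal calf serum, and collected after 12 h and on days 1, 2, 3, 4, 6, 7, 8 and 9 with an enzyme-free gel solution (Matrisperse), with 1 array at each time. The time on plastic is not given in the sources used here. RT4 is 1 line, the crECM arrays are time points, and nothing states that the plastic arrays came from separate cultures, so p-values measure only the spread between these arrays. In RNA from a whole culture, fewer cells of a type and less RNA per cell cannot be told apart. The comparison asks which cadherin genes differ when papilloma cells grow on crECM.

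Cadherins are calcium-dependent adhesion proteins built from repeated extracellular domains. Classical cadherins join epithelial cells at adherens junctions and bind catenins inside the cell, and the desmogleins and desmocollins form the desmosomes that carry mechanical load in the urothelium. Protocadherins, many of them in gene clusters best known from neurons, the FAT and CELSR genes of planar polarity, and the CDHR genes of intestinal microvilli complete the family.

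Deposited values are intensities that the study divided by the SD of the noise peak of each array and then adjusted between arrays by regression. They are given here in SD, but after the adjustment a deposited SD is not an SD of the raw noise. A change is the log2 of such values on crECM minus plastic, after values under 3 SD were set to 3 SD. Plastic arrays were dimmer, with raw medians of 162 and 140.45 against 224 to 482 on crECM arrays. A deposited 3 SD lay at a raw intensity of 13.45 and 9.70 on plastic, under the raw noise mode of 27.0 and 29.0, but between 52.2 and 135 on crECM, over the modes there (30.5 to 63.5). Noise mode plus 3 SD of the raw intensities came to 145 and 167 on plastic and to between 112 and 170 on crECM. Substrate and array handling cannot be told apart in this design. Of the epithelial check genes, KRT18, KRT19, EPCAM, GATA3 and PPARG were above 5 SD on all 11 arrays and none of these 5 passed the test. In raw intensity, EPCAM on plastic 2 (145.1) was under the limit of 167 there. The uroplakin UPK1B was above 5 SD on 1 array and was not tested.

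Both directions were found among the cadherins, with more genes lower than higher. Of 93 genes tested by limma, 17 were higher on crECM and 26 were lower at an adjusted p under 0.05, 50 did not pass, and 4 (CELSR3, PCDHA2, PCDHA10 and PCDHB16) were too dim to test. The called share was 46.2% of the members, against 44.3% of the 14517 genes tested. The higher share was 18.3% against 24.2% of all genes, and the lower share 28.0% against 20.1%. At 2-fold or more, 8 members were higher (11.8% of all genes) and 10 were lower (4.48% of all genes). The groups did not overlap for 16 of the 17 higher and all 26 lower members. Over all genes, 5776 of the 6434 called were without overlap (39.8% of the 14517 tested), so this is common among called genes. Raw intensities on plastic were over the noise on both arrays for 4 of the 17 higher members (CDH2, CDH6, CDH15 and DSG1), on 1 array for 3 (FAT4, PCDH9 and PCDHA9) and on neither for 10. For these 10, no fold is given. Of the called members, 4 higher (CDHR2, PCDH10, PCDHGA12 and PCDHGC5) and 4 lower passed the filter through 1 group alone, so that their direction was fixed by it. The others were 13 higher and 22 lower, of which 4 and 7 changed by 2-fold or more in the deposited values. The 4 higher ones (PCDH11X, PCDHA1, PCDHB17P and CDH5) were within the raw noise on both plastic arrays. The 7 lower ones were over it on both, so the 2 counts are not alike. The median change was -0.16 for the members and 0.09 for all genes tested.

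This split depended on the scaling. In values rebuilt from the raw intensities, 29 members were higher (45.0% of all genes) and 16 lower (11.5% of all genes). There the median of all genes stood at 0.43 and that of the members at 0.23, so the members lay under the median of all genes in either scale. Without the regression step of the study, 65 members were higher and 0 lower, with medians of 1.31 for all genes and 1.18 for the members, and CDH1 (0.26), CDH20 (0.044) and PCDHB5 (0.050) were among those whose direction turned. A lower call thus means lower relative to the other genes of the array. After quantile normalization 20.8% of all genes were higher and 11.9% lower, with 12 of the 17 and 16 of the 26 members still called. Changes also followed the third group of 3 digits in the probe identifier, whose meaning is not given in the sources used here. The median change of all probes was 0.27 in fields 1 to 13, which hold 31 member genes, and -0.20 in fields 14 to 26, which hold 66. With each array centered within this field, 21.5% of all genes were higher and 18.9% lower, and 12 of the 17 higher and 17 of the 26 lower members were still called. In the deposited values, 11 members were higher and 3 lower in fields 1 to 13, and 6 were higher and 23 lower in fields 14 to 26. Whether the field takes part in the member results was not tested.

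Of the 43 called members, 7 higher and 5 lower genes passed the test in the deposited values, the rebuilt values, quantile normalization, the centering by field, with array weights and with any 1 array left out, each on the brightest probe of the gene. The higher ones were CDHR2, PCDH10, PCDHGC5, PCDH11X, CDH5, FAT4 and the brighter probe of CDH6, whose other probe was lower. CDHR2, PCDH10 and PCDHGC5 passed the filter through crECM alone, so their direction was fixed by it and passing again adds little. The lower ones were CDH20, PCDH20, PCDHB5, PCDHB12 and PCDHGA4. Leaving out a plastic array had a large effect on the number of calls: 9 and 7 of the 17 higher and 11 and 7 of the 26 lower members were still called without plastic 1 and without plastic 2. Without any 1 crECM array, at least 14 of the higher and 25 of the lower members were still called.

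**Figure D1:**
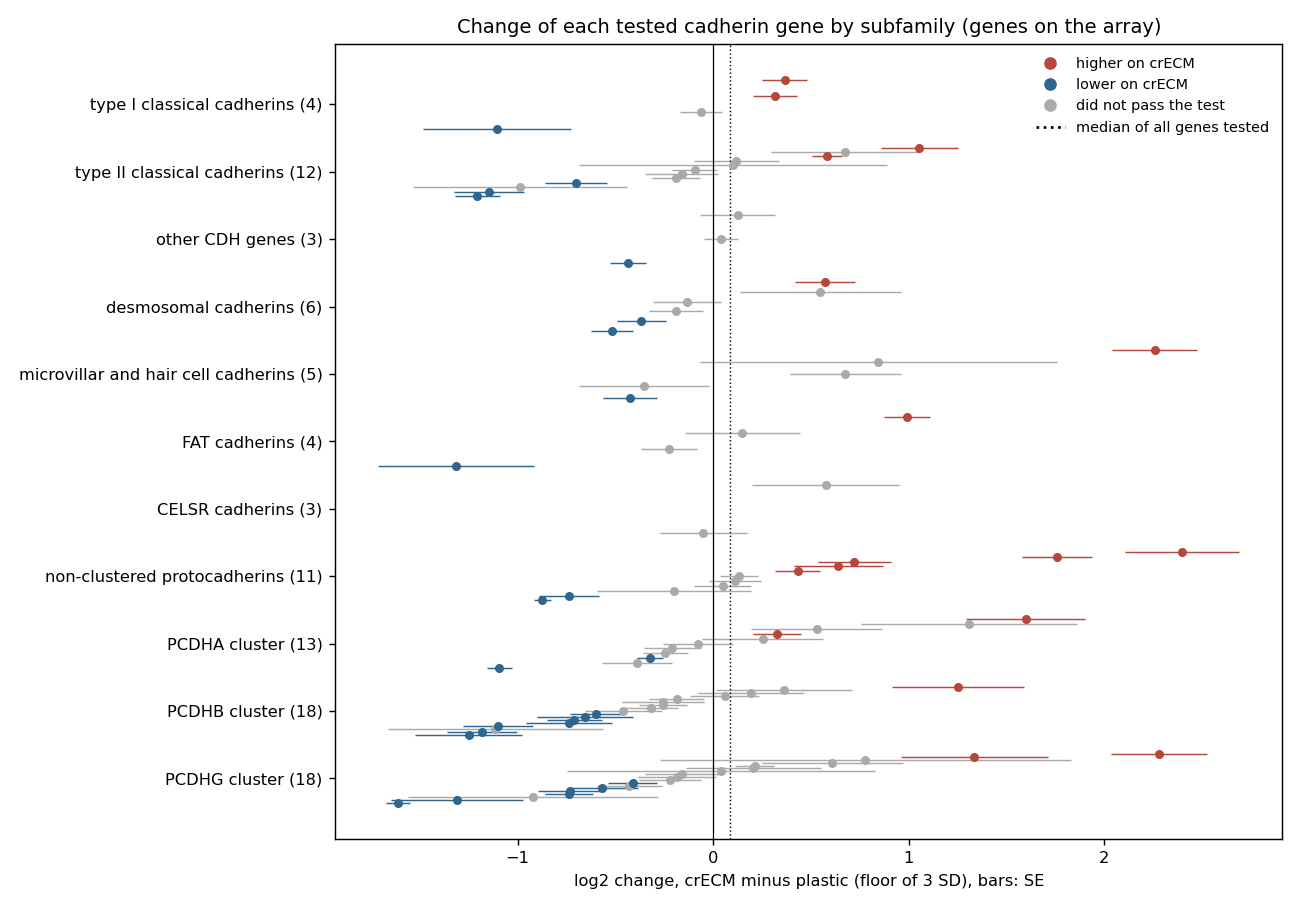
Log2 change of deposited values (crECM minus plastic, x axis) of the 93 tested cadherin genes, grouped by subfamily (y axis, with the number of genes on the array), with SE bars. The largest rises, 2.26 to 2.40, are in 3 different subfamilies. The PCDHB and PCDHG clusters, with 18 of the 97 genes each, hold 13 of the 26 lower genes.

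CDHR2, PCDH10 and PCDHGC5 went from the lowest listed value on both plastic arrays to above 10 SD on every crECM array. These were the only members with a mean log10 value under 0 on plastic and over 1 on crECM, the off-on limits of the study, which 3.96% of the 14941 named genes met. No member met the reverse, on-off, limits, which 0.335% of all genes met. These classes are descriptions without a test. In the rebuilt and the quantile normalized values no member met the off-on limits. Both began from values set to at least 1 SD, and a quantile normalized log10 mean thus cannot fall under 0. The count there was fixed for the quantile normalized values and is no check of the class.

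CDHR2, a microvillar protocadherin that links the tips of neighboring microvilli in the intestinal brush border, was listed at 0.00306 SD on plastic 1 and at 0.00412 SD on plastic 2, the lowest value of each array. On crECM it lay at 12.1 SD at the lowest (day 9), 13.3 SD at the median and 21.0 SD at the highest (day 4). The log2 change with the floor was 2.26 (SE 0.22, adjusted p = 7.76e-06 by limma, n = 2 and 9). Since both plastic arrays are at the floor, the group has no spread, and the SE rests on the crECM arrays alone. Raw CDHR2 intensities were negative on plastic (-16.4 and -29.9) and ran from 142 to 407 on crECM, over the raw noise limit on all 9 crECM arrays. The change was 1.02 in the rebuilt values (adjusted p = 0.00197) and 0.76 after quantile normalization.

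PCDH10, a non-clustered protocadherin of the delta group, was likewise at the lowest listed value on both plastic arrays. Its crECM values were 10.97 SD at the lowest (12 h), 15.5 SD at the median and 27.3 SD at the highest (day 4). The log2 change with the floor was 2.40 (SE 0.29, adjusted p = 5.71e-05), against 1.14 in the rebuilt and 0.92 in the quantile normalized values. Its raw intensities, -18.4 and -30.4 on plastic, reached 128 to 486 on crECM, again over the noise on all 9. PCDHGC5, the last variable exon gene of the PCDHG cluster, was at the lowest value on plastic as well and had crECM values from 10.1 SD (12 h) through a median of 14.4 SD to 18.8 SD (day 1). Its log2 change with the floor was 2.28 (SE 0.25, adjusted p = 2.17e-05), against 1.03 in the rebuilt and 0.76 in the quantile normalized values.

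PCDH11X, another delta protocadherin, was listed at 8.11 and 10.99 SD on plastic. On crECM it lay at 24.3 SD at the lowest (12 h), 32.6 SD at the median and 41.8 SD at the highest (day 4), so that all 9 arrays were above both plastic arrays. It was higher by 1.76 on the log2 scale (SE 0.18, adjusted p = 1.27e-05), and under the alternatives other than the values rebuilt without regression (2.27) the log2 change stayed between 1.54 and 2.08. Raw PCDH11X intensities were 43.2 and 55.0 on plastic, within the raw noise, and between 236 and 656 on crECM. PCDH11X shares most of its sequence with PCDH11Y, and the probe's sequence was not analysed here.

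**Figure D2:**
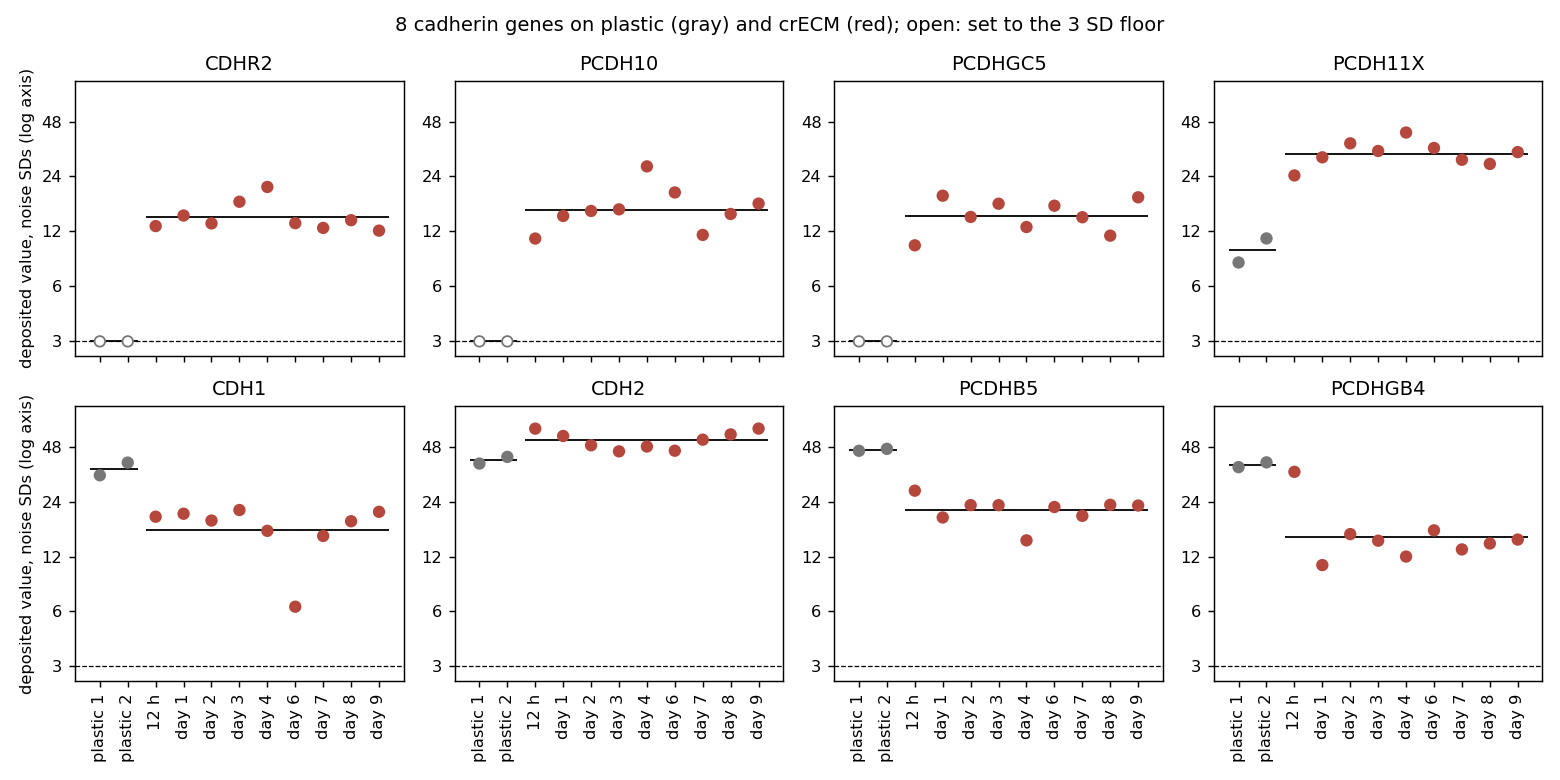
Deposited values in noise SDs (log axis) of 8 cadherin genes on each of the 2 plastic arrays (gray) and 9 crECM arrays (red), with group means as lines and values set to the floor of 3 SD as open circles. CDHR2, PCDH10 and PCDHGC5 are at the floor on plastic and at 10.1 to 27.3 SD on crECM, and CDH1 lies at 33.4 and 39.2 SD on plastic and at 6.37 to 21.6 SD on crECM.

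The 250 bases before the start of both genes with an entry in the promoter table are shown (RefSeq, GRCh38.p14), since these genes rose most among those listed. CACCTG and its reverse complement CAGGTG, the E-box letters that SNAI and ZEB repressors of cadherin genes are known to bind, are in capitals.
CDHR2 (chr5:176542261-176542510, + strand): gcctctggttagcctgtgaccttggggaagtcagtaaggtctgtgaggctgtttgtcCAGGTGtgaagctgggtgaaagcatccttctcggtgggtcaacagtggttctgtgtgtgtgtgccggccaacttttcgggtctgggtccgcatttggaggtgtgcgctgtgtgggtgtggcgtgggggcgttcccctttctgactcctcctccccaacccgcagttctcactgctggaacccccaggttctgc
PCDH11X (chrX:91779125-91779374, + strand): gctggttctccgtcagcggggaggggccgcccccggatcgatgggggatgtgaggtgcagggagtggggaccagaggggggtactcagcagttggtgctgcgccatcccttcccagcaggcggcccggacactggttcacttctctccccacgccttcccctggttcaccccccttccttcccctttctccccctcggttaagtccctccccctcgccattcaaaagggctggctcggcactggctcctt
CACCTG on either strand was present in 17.5% of 27305 promoters of this length and in 10 of 73 promoters of members. It was found in 3 of 9 promoters of higher members, 3 of 19 of lower members and 4 of 41 of those that did not pass. The E-box CACGTG was in 6.49% of all promoters and in 3 of the members, and TATAAA was in 11.1% and in 7. A match is only a match of letters.

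Of the 5 genes of microvilli and of hair cell tip links, CDHR2 was higher, CDHR1 was lower and 3 did not pass. The shares over all genes were 24.2% higher and 20.1% lower. CDHR5, the microvillar partner that CDHR2 binds, had 31.0 and 21.3 SD on plastic and 28.1 to 75.2 SD on crECM with a median of 39.3 SD and the highest value on day 4. The groups overlapped at the lower end, and the log2 change of 0.67 (SE 0.28) did not pass (adjusted p = 0.0732). It passed in the rebuilt values and in the values centered by field. CDHR1, a photoreceptor cadherin, lay at 39.3 and 45.4 SD on plastic and between 25.6 and 36.8 SD on crECM (median 31.0 SD, log2 change -0.43, SE 0.14, adjusted p = 0.0274). CDHR1 did not pass in the rebuilt values (adjusted p = 0.0880), after quantile normalization (adjusted p = 0.147) or after centering by field (adjusted p = 0.315). CDH23 and PCDH15, which form the tip link of hair cells, did not pass. CDH23 had 15.4 and 14.1 SD on plastic and a median of 22.1 SD on crECM with 315 SD on day 2. PCDH15 was over the raw noise on no array.

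Of 4 intracellular and motor partners of this complex on the array, 3 were higher, 0 lower and 1 did not pass. Over all genes 24.2% were higher. The list was chosen with earlier results of these data known, so the count is a description and no test. USH1C, the scaffold harmonin that holds the tails of CDHR2 and CDHR5, was listed at the lowest value on both plastic arrays and lay between 5.72 and 20.4 SD on crECM (log2 change with the floor 2.30, SE 0.42, adjusted p = 0.00110). MYO7B, the brush border myosin of the complex, had 2.14 and 14.6 SD on plastic and between 25.0 and 37.6 SD on crECM (log2 change with the floor 2.22, SE 0.40, adjusted p = 0.00101). CALML4, a light chain of MYO7B, had 5.90 and 0.00412 SD on plastic and between 5.93 and 17.7 SD on crECM (log2 change 1.59, SE 0.39, adjusted p = 0.00619). MYO7A, the hair cell myosin, had 34.7 and 34.8 SD on plastic and a median of 33.1 SD on crECM (log2 change 0.01, SE 0.14, adjusted p = 0.978). On plastic the raw intensities of USH1C, MYO7B and CALML4 were all within the noise. USH1C passed the filter through the crECM arrays alone, which fixed its direction.

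The non-clustered protocadherins as a whole were mixed. Of 11 genes, PCDH10 and PCDH11X among them, 5 were higher, 2 lower and 4 did not pass, with a median change of 0.13. Of all genes, 24.2% were higher and 20.1% lower. PCDH1, a protocadherin of airway and other epithelia, had 16.2 and 15.7 SD on plastic and 21.9 to 38.0 SD on crECM (median 25.9 SD, log2 change 0.72, SE 0.19, adjusted p = 0.00894). PCDH8 had 16.8 and 16.4 SD on plastic and 19.1 to 34.3 SD on crECM (log2 change 0.64, SE 0.23, adjusted p = 0.0391), and PCDH9 rose by 0.43 (SE 0.12, adjusted p = 0.0111). The call for PCDH1 was lost without plastic 1 and without plastic 2, and that for PCDH8 also without any of several crECM arrays. On plastic the raw intensities of PCDH1 (109.4 and 91.8) and PCDH8 (115 and 96.9) lay within the noise. PCDH20 had 46.2 and 45.8 SD on plastic and 22.9 to 35.7 SD on crECM (median 28.1 SD). It was 1.67-fold lower, with a log2 change of -0.74 (SE 0.15, adjusted p = 0.00251).

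PCDH17 and 3 other members called lower were within the raw noise on all 11 arrays. PCDH17 had 5.65 and 5.35 SD on plastic and at most 0.330 SD on crECM, but its raw intensities were 27.3 and 20.3 on plastic and 30.3 to 46.7 on crECM, higher on each crECM array. CDH12, a type II cadherin of the brain, had 5.55 and 8.62 SD on plastic and at most 0.117 SD on crECM, with raw intensities of 26.7 and 39.1 against 24.6 to 48.4. PCDHGB3 (8.43 and 9.98 SD on plastic, at most 1.01 SD on crECM) and PCDHA11 (7.06 and 5.81 SD against at most 0.597 SD) were also never above the raw noise limit. Their deposited log2 changes were -0.87, -1.21, -1.61 and -1.09 (SE 0.04, 0.11, 0.06 and 0.06). In the rebuilt values all 4 were too dim to test, so these calls are not found outside the deposited scale. All 4 passed the filter through the plastic arrays alone, which fixed their direction. The other 22 lower members, 7 of them at 2-fold or more, were over the raw noise on both plastic arrays.

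**Figure D3:**
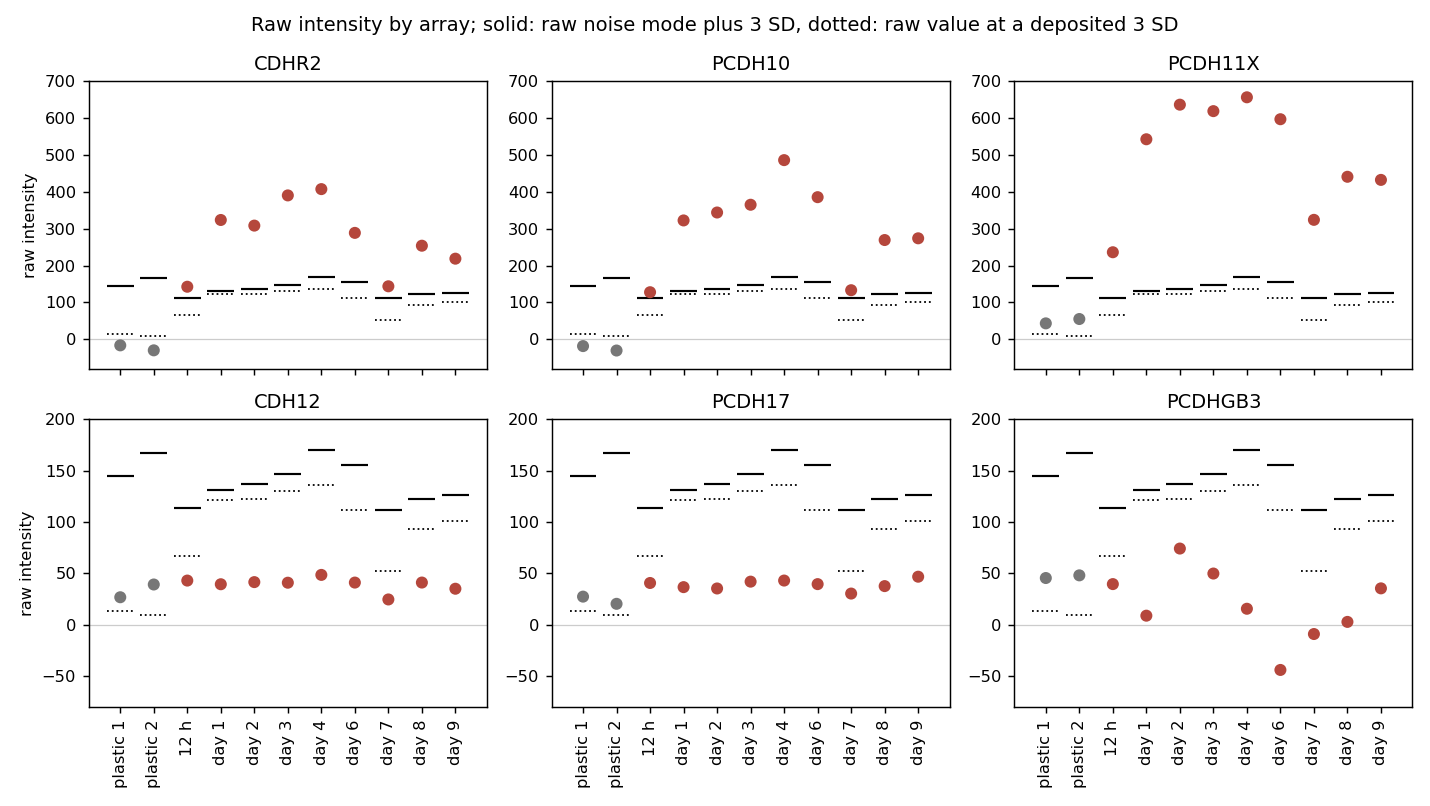
Raw intensity (y axis) on each array (x axis) of 3 members called higher (top) and 3 called lower (bottom, another scale), plastic in gray and crECM in red. Solid marks give the raw noise mode plus 3 SD of each array and dotted marks the raw intensity at a deposited 3 SD. The top genes exceed the solid mark on all 9 crECM arrays and on neither plastic array, and the bottom genes exceed it nowhere.

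Among the 4 type I classical cadherins, the epithelial CDH1 fell while CDH2 and CDH15 rose and CDH3 did not pass. The shares over all genes were 24.2% higher and 20.1% lower. CDH1, E-cadherin, the main adhesion protein of urothelial adherens junctions, had 33.4 and 39.2 SD on plastic and 6.37 SD (day 6) to 21.6 SD (day 3) on crECM, with a median of 18.9 SD. All crECM arrays lay under both plastic arrays, and CDH1 was 2.15-fold lower (log2 change -1.11, SE 0.38, adjusted p = 0.0330). Without the day 6 array the change was -0.93 (adjusted p = 0.00064). The call was lost without plastic 1 (adjusted p = 0.112), without plastic 2 (adjusted p = 0.210), with array weights (adjusted p = 0.103) and after centering by field (-0.78, adjusted p = 0.108). Raw CDH1 intensities, 302 and 343 on plastic, overlapped those on crECM (173 to 453).

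CDH2, the N-cadherin of neural and mesenchymal cells, had 38.8 and 42.2 SD on plastic and 45.2 to 60.3 SD on crECM (median 52.4 SD). The rise was 1.29-fold (log2 change 0.37, SE 0.12, adjusted p = 0.0240), and after centering by field it was 0.01 (adjusted p = 0.965). The CDH2 call was lost without plastic 1 and without plastic 2. CDH15, the cadherin of muscle, rose by 0.32 (SE 0.11, adjusted p = 0.0371) with overlapping groups, and its call was lost in 6 of the fits with 1 array left out. CDH3, the P-cadherin of basal epithelial cells, had 43.2 and 44.5 SD on plastic and 37.1 to 51.1 SD on crECM. Its log2 change was -0.06 (SE 0.11, adjusted p = 0.660), and it turned to 0.03 in the rebuilt and 0.06 in the quantile normalized values, while after centering by field it was -0.42 and passed (adjusted p = 0.00988).

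Of 12 type II cadherins, 2 were higher, 3 lower and 7 did not pass, where 24.2% of all genes were higher and 20.1% lower. CDH5, the VE-cadherin of endothelial cells, had 12.1 and 11.5 SD on plastic and 15.4 SD at 12 h, the lowest on crECM, with a median of 25.9 SD and 28.3 SD at the highest (day 8). It was higher by 1.05 on the log2 scale (SE 0.20, adjusted p = 0.00121), and by 1.72 in the rebuilt values. The raw CDH5 intensities on plastic, 73.3 and 58.8, lay within the noise. CDH6, a kidney cadherin, had 27.5 and 29.3 SD on plastic and 38.8 to 45.6 SD on crECM on its brighter probe (log2 change 0.58, SE 0.08, adjusted p = 1.08e-04). Its second probe moved the other way, from 45.9 and 47.7 SD on plastic to between 25.5 and 39.2 SD on crECM (log2 change -0.49, SE 0.14, adjusted p = 0.0143). The mean of both CDH6 probes changed by 0.05 (adjusted p = 0.706), so no direction can be given for the gene.

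CDH20, a type II cadherin of the developing nervous system, had 43.1 and 45.1 SD on plastic and 14.4 SD (day 3) to 25.4 SD (day 4) on crECM, with a median of 20.3 SD. It was 2.21-fold lower (log2 change -1.15, SE 0.18, adjusted p = 3.90e-04), with the groups far apart. CDH22 had 34.8 and 36.4 SD on plastic and 18.7 to 27.8 SD on crECM (log2 change -0.70, SE 0.16, adjusted p = 0.00410). CDH9, with 21.9 and 16.8 SD on plastic and 5.05 to 21.2 SD on crECM, overlapped and did not pass. Of the remaining CDH genes, CDH16, another kidney cadherin, was lower (log2 change -0.43, SE 0.09, adjusted p = 0.00277), and CDH17 and CDH26 did not pass. The bases before CDH20 are given because it had the largest fall outside the clusters among genes with an entry in the table and raw intensities over the noise on plastic. They hold none of the motifs searched.
CDH20 (chr18:61333180-61333429, + strand): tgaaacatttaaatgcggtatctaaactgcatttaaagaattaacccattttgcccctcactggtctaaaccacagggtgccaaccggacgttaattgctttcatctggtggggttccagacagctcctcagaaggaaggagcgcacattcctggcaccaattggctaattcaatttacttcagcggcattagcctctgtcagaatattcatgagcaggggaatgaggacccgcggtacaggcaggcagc

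Of the 6 desmosomal cadherins 1 was higher, 2 were lower and 3 did not pass, where 24.2% of all genes were higher and 20.1% lower. After centering by field 0 were higher and 1 lower, and in the rebuilt values 2 were higher and 1 lower. DSG1, the desmoglein of stratified epithelia, had 23.5 and 24.2 SD on plastic and 25.3 SD (day 4) to 43.6 SD (12 h) on crECM, a median of 35.9 SD. It was 1.49-fold higher (log2 change 0.57, SE 0.15, adjusted p = 0.0103), and 0.21 after centering by field (adjusted p = 0.308). The DSG1 call was lost without plastic 1 and without plastic 2. DSG2, the desmoglein of simple epithelia, had 37.7 and 39.1 SD on plastic and 22.9 to 29.9 SD on crECM on its brighter probe, a 1.43-fold fall (log2 change -0.52, SE 0.11, adjusted p = 0.00239). On its second probe DSG2 had 23.1 and 21.9 SD on plastic and 8.63 to 29.5 SD on crECM (log2 change -0.07, SE 0.36, adjusted p = 0.884), and the mean of both probes did not pass (adjusted p = 0.202).

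DSC1, a desmocollin of the upper epidermis, had 43.6 and 40.9 SD on plastic and 25.7 to 38.7 SD on crECM (log2 change -0.37, SE 0.13, adjusted p = 0.0340). DSC1 did not pass in the rebuilt (adjusted p = 0.113) or the quantile normalized values (adjusted p = 0.164), but passed after centering by field (adjusted p = 0.00225). DSC2, the widespread desmocollin, had 16.5 and 18.9 SD on plastic and 13.6 to 19.5 SD on crECM (log2 change -0.13, SE 0.17, adjusted p = 0.562). DSC3, a basal desmocollin, had 38.8 and 32.7 SD on plastic and 27.8 to 41.5 SD on crECM (log2 change -0.19, SE 0.14, adjusted p = 0.277). The groups of both overlapped. DSG3, the basal desmoglein, had 0.00306 and 2.48 SD on plastic and 2.35 to 10.4 SD on crECM, with raw intensities over the noise on 3 crECM arrays, and did not pass (adjusted p = 0.301).

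The plaque proteins that join desmosomal cadherins to keratin were lower in 4 of 9 genes and higher in 1, where 20.1% of all genes were lower and 24.2% higher. DSP, desmoplakin, had 36.5 and 38.3 SD on plastic and 14.9 to 24.7 SD on crECM (log2 change -0.91, SE 0.21, adjusted p = 0.00440). PKP1, a plakophilin, was called lower in the deposited values (log2 change -1.43, adjusted p = 8.86e-08), with raw intensities within the noise on all arrays. PKP2 and PKP4 were also lower, and the changes of DSP, PKP2 and PKP4 were -0.67, -0.31 and -0.42 in the rebuilt values. EVPL, envoplakin of the cornified envelope, was higher (log2 change 0.89, SE 0.30, adjusted p = 0.0336).

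Of the 4 FAT genes, FAT4 was higher and FAT3 lower, where 24.2% of all genes were higher and 20.1% lower. FAT4, the large cadherin of planar polarity and growth control, had 23.5 and 17.3 SD on plastic and 36.5 to 48.3 SD on crECM, with a median of 38.8 SD and the highest value on day 4. It was 1.99-fold higher (log2 change 0.99, SE 0.12, adjusted p = 4.96e-05). FAT3 had 34.5 and 33.96 SD on plastic and 5.04 SD (day 9) to 17.8 SD (day 1) on crECM, a 2.49-fold fall (log2 change -1.32, SE 0.40, adjusted p = 0.0188). The FAT3 call was lost without plastic 1 and without plastic 2. FAT1, the FAT gene of epithelia, had 24.9 and 27.7 SD on plastic and 18.1 to 27.1 SD on crECM (log2 change -0.22, SE 0.14, adjusted p = 0.225), but 0.17 in the rebuilt values and -0.52 after centering by field (adjusted p = 0.0103). FAT2 was at the lowest listed value on both plastic arrays and above 5 SD on 1 crECM array, day 3 (7.51 SD), and did not pass.

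CELSR1 and CELSR2, which set planar polarity with VANGL and FZD proteins, did not pass, and CELSR3 was not tested. CELSR1 had 17.9 and 18.2 SD on plastic and 13.9 to 39.4 SD on crECM, a median of 31.3 SD with overlapping groups (log2 change 0.57, SE 0.38, adjusted p = 0.237). CELSR2 had 42.9 and 39.4 SD on plastic and 30.3 to 61.0 SD on crECM (log2 change -0.05, SE 0.22, adjusted p = 0.868). Of 10 polarity and Hippo pathway partners, 2 were higher and 3 lower, where 24.2% of all genes were higher and 20.1% lower. The higher ones were PRICKLE1 and FZD3, and the lower ones LATS1, TEAD1 and VANGL1. LATS1, a kinase of the Hippo pathway, had the largest of these changes (-0.66, SE 0.12, adjusted p = 8.13e-04).

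The clustered protocadherins hold 49 of the 97 genes. PCDHA, PCDHB and PCDHG genes lie side by side on chromosome 5, and each neuron is known to express a few of them. In the PCDHA and PCDHG clusters each gene supplies a variable first exon to a shared end, while PCDHB genes are single exons. Their sequences are so close that a probe can take RNA of neighbors, and the values of single clustered genes are uncertain for that reason.

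The PCDHB cluster was the subfamily with the largest number of lower genes. Of 18 genes, 17 were tested, 7 were lower, 1 was higher and 9 did not pass, with a median change of -0.46, against 20.1% lower and a median of 0.09 over all genes. After centering by field the median was -0.37 and 6 genes were lower, 5 of them from the 7. PCDHB12 had 42.4 and 62.9 SD on plastic and 18.1 to 28.5 SD on crECM, a median of 24.2 SD (log2 change -1.18, SE 0.18, adjusted p = 3.07e-04). PCDHB5 had 45.5 and 46.7 SD on plastic and 14.7 SD (day 4) to 27.5 SD (12 h) on crECM (log2 change -1.10, SE 0.18, adjusted p = 4.98e-04). PCDHB15 had 23.0 and 27.2 SD on plastic and 6.77 to 14.7 SD on crECM (log2 change -1.25, SE 0.27, adjusted p = 0.00339), and its call was lost without plastic 2. In each of the 3 genes every crECM array lay under both plastic arrays.

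PCDHB2, PCDHB3, PCDHB6 and PCDHB7 were lower by smaller amounts, with log2 changes from -0.60 to -0.74. Of the 14 PCDHB genes with probes in fields 14 to 26, where the median probe changed by -0.20, PCDHB12, PCDHB5 and these 4 were lower, while PCDHB15 lies in field 12, where the median probe changed by 0.55. The pseudogene PCDHB17P, between PCDHB6 and PCDHB7, was the gene that rose, from 8.91 and 5.87 SD on plastic to between 9.15 SD (12 h) and 27.1 SD (day 1) on crECM (log2 change 1.25, SE 0.34, adjusted p = 0.0105). Without plastic 2 this call was lost. The raw intensities of PCDHB17P on plastic, 48.9 and 23, lay within the noise. PCDHB13 (12.3 and 14.4 SD on plastic, 2.52 to 13.5 SD on crECM) had overlapping groups and did not pass.

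The lower genes PCDHB5, PCDHB12 and PCDHB15 and their neighbor PCDHB4 are shown by the 250 bases before their start, because they share letters. GTGGCGCT, which contains the CGCT core of the element known from clustered protocadherin promoters, is in capitals, as is TATAAA. The letters GTGGCGCT were chosen after the sequences were read.
PCDHB4 (chr5:141121568-141121817, + strand): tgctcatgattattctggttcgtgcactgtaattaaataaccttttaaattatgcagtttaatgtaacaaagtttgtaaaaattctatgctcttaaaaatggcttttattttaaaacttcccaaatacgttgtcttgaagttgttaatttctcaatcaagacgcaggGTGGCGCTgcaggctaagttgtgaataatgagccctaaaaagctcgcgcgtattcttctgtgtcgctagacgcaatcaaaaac
PCDHB5 (chr5:141134956-141135205, + strand): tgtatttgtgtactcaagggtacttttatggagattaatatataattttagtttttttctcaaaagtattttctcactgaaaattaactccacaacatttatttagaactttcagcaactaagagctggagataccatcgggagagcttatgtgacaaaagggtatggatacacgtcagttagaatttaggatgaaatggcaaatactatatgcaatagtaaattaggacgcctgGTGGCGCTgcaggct
PCDHB12 (chr5:141208469-141208718, + strand): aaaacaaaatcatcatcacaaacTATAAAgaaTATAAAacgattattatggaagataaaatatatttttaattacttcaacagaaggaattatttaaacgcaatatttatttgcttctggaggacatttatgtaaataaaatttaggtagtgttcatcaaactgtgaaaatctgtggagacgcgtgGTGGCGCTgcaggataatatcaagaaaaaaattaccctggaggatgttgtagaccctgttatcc
PCDHB15 (chr5:141245145-141245394, + strand): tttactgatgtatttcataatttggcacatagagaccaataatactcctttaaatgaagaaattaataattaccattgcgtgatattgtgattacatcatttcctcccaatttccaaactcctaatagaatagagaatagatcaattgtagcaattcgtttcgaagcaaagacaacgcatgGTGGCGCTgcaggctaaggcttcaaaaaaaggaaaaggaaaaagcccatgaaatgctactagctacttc
GTGGCGCT on either strand was present in 12 of the 14 PCDHB promoters in the table, in 0 of the other 59 member promoters, and in 0.949% of all 27305 promoters. Of the 12, 6 belong to lower genes, 5 to genes that did not pass (PCDHB4 among them, with a log2 change of -0.46) and 1 to a gene not tested. The letters were thus found before lower PCDHB genes and before others of the cluster. PCDHB1 and PCDHB8 lack them, and neither passed the test.

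In the PCDHG cluster 6 of 18 genes were lower, 2 were higher and 10 did not pass. Of all genes, 20.1% were lower and 24.2% higher. The median change of the cluster was -0.20 in the deposited values and 0.09 after centering by field. PCDHGB4 had 37.1 and 39.4 SD on plastic, 34.9 SD at 12 h, and 10.8 to 16.7 SD on the later crECM arrays (log2 change -1.31, SE 0.34, adjusted p = 0.00857). Its call was lost without plastic 1 and without plastic 2. PCDHGA4 had 32.8 and 34.5 SD on plastic and 17.2 to 23.5 SD on crECM (log2 change -0.74, SE 0.12, adjusted p = 6.21e-04). PCDHGA2 had 39.9 and 54.4 SD on plastic and 21.3 to 34.4 SD on crECM (log2 change -0.73, SE 0.16, adjusted p = 0.00376). PCDHGA6 and PCDHGB6 were lower in the deposited values (log2 changes -0.57 and -0.41) and did not pass after centering by field, and PCDHGB3 was within the noise, as given above. The genes called higher lie at the far end of the cluster. PCDHGA12 was listed at the lowest value on both plastic arrays and lay between 4.85 and 12.1 SD on crECM (log2 change with the floor 1.34, SE 0.38, adjusted p = 0.0135), and PCDHGC5 is described above. For PCDHGA12 the change was 0.34 in the rebuilt values (adjusted p = 0.269) and 0.16 after quantile normalization (adjusted p = 0.452), and the call was also lost without plastic 1 and without plastic 2. PCDHGB2 was at 252 SD on day 4 and at 3.55 to 20.2 SD on the other crECM arrays, and did not pass.

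In the PCDHA cluster 2 of 11 tested genes were higher, 2 lower and 7 did not pass. The shares over all genes were 24.2% higher and 20.1% lower. PCDHA1, the first gene of the cluster, had 5.07 and 3.17 SD on plastic and 7.32 to 15.8 SD on crECM, a median of 13.4 SD (log2 change 1.60, SE 0.31, adjusted p = 0.00141). Its raw intensities on plastic, 23.9 and 10.3, were under the noise mode, and the change was 0.79 in the rebuilt and 0.58 in the quantile normalized values. Without plastic 2 the adjusted p was 0.0546. PCDHA4 was at the lowest value on both plastic arrays and between 1.60 and 12.6 SD on crECM, and did not pass (adjusted p = 0.0738). PCDHA9 was higher by 0.33 (SE 0.12, adjusted p = 0.0497), and its call was lost in 7 of the fits with 1 array left out. PCDHA13 was lower (log2 change -0.32, SE 0.07, adjusted p = 0.00229), but not after centering by field (adjusted p = 0.997). The PCDHA1 sequence is shown because it had the larger change of the 2 higher clustered genes in the table. It holds no motif searched, while that of PCDHA9 holds CACGTG.
PCDHA1 (chr5:140785890-140786139, + strand): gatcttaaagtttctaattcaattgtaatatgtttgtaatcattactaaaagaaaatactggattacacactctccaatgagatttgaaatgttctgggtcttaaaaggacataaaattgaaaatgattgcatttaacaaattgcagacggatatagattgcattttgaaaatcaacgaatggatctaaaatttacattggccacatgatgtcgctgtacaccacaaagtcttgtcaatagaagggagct

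**Figure D4:**
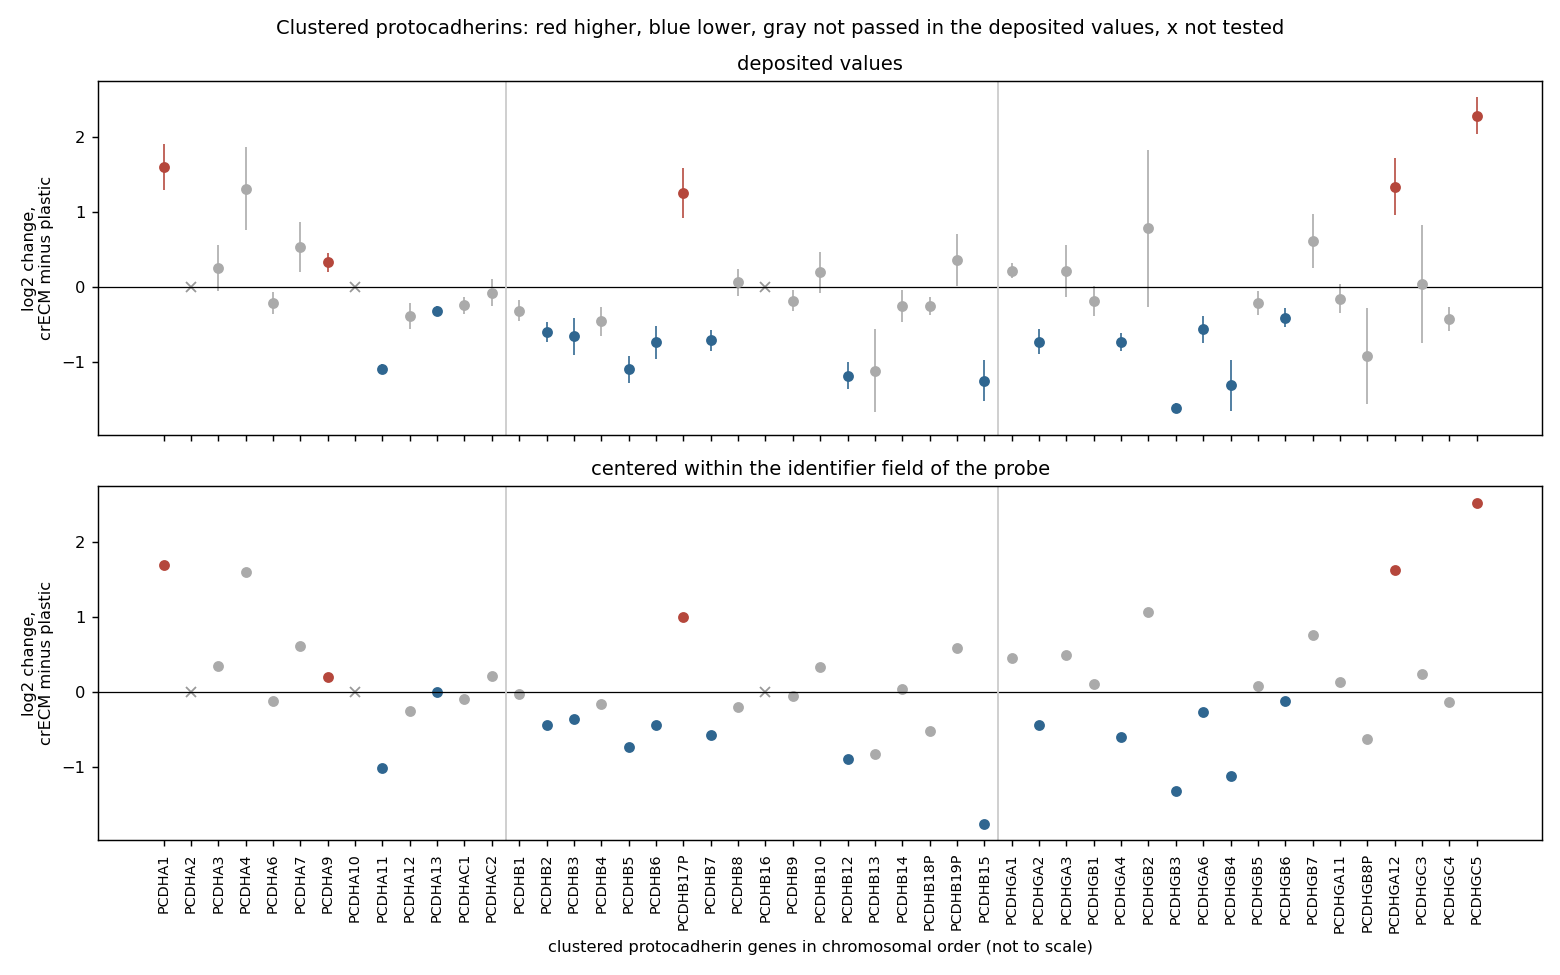
Log2 change (crECM minus plastic, y axis) of the 49 clustered protocadherins in chromosomal order (x axis, not to scale), PCDHA, PCDHB and PCDHG from left to right, in the deposited values with SE bars (top) and after centering within the identifier field (bottom). Colors give the call in the deposited values, and crosses mark genes not tested. The PCDHB genes sit mostly under 0 in both panels, and PCDHGC5 at the right end is highest.

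Over the 9 days on crECM the cadherins showed few differences with time. No member passed the test for a trend on the log2 of the day among 89 tested. At an unadjusted p under 0.05, 3 members passed, CELSR2 and PCDHA3 with falling and PCDHGA6 with rising slopes, which is 3.37% of the members against 7.65% of all 13760 genes tested, of which 1 gene passed after adjustment. In the comparison of the 12 h array with the later arrays, 3 of 89 members passed, against 4.32% of all genes. PCDHGB4 was higher at 12 h by 1.33 (SE 0.27, adjusted p = 0.0237) and PCDHA3 by 1.19 (SE 0.24, adjusted p = 0.0235), at 60.3 SD against 18.6 to 32.1 SD later. CDH5 was lower at 12 h (log2 change -0.75, SE 0.15, adjusted p = 0.0236). The 12 h level is a single array assumed to vary like the others.

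Of the 77 members above 3 SD on all crECM arrays, 54 varied by less than 2-fold between the lowest and the highest array, with a median of 1.62-fold. The widest were PCDHGB2 and CDH23. CDH23 was wide through day 2 alone, and PCDHGB2 still varied by 5.70-fold without day 4. Of the 17 higher members, 6 had their highest crECM value on day 4, among them CDHR2, PCDH10, PCDH11X, FAT4, PCDH1 and CDH15.

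Genes of the catenin list, which holds not only catenins but also VCL, CTNNBL1 and CTNNBIP1, moved both ways. Of its 12 genes, 4 were higher, 4 lower and 4 did not pass, where 24.2% of all genes were higher and 20.1% lower. CTNNA1, alpha-catenin, had 31.5 and 26.2 SD on plastic and 34.1 to 44.2 SD on crECM (log2 change 0.39, SE 0.10, adjusted p = 0.0104), and JUP, plakoglobin, rose by 0.40 (SE 0.14, adjusted p = 0.0376). CTNND1, the p120 catenin that holds cadherins at the membrane, was higher (log2 change with the floor 1.53, SE 0.48, adjusted p = 0.0232), with plastic raw intensities within the noise. VCL, vinculin, which reinforces adherens junctions, had 65.1 and 69.1 SD on plastic and 29.3 to 45.0 SD on crECM (log2 change -0.88, SE 0.12, adjusted p = 1.55e-04). CTNNB1, beta-catenin, was called lower (log2 change -0.96) from 4.15 and 8.24 SD on plastic, with raw intensities within the noise on all arrays. CTNNB1 and CTNNBL1 passed the filter through plastic alone and CTNNAL1 through crECM alone, which fixed the direction of these calls.

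Of 8 listed repressors of CDH1, 0 passed as higher, 2 were lower, 5 did not pass and 1 was not tested. ZEB2, at the lowest value on both plastic arrays and 0.898 to 20.1 SD on crECM, had a log2 change of 1.34 (SE 0.52, adjusted p = 0.0554). SNAI1 had 31.6 and 31.5 SD on plastic and 19.9 to 29.5 SD on crECM (log2 change -0.41, SE 0.14, adjusted p = 0.0375), and ZEB1 was called lower with raw intensities within the noise on all arrays. Of 10 genes that cleave, take up or dephosphorylate cadherins, 3 were higher and 2 lower. FURIN, the protease that matures cadherins, rose by 0.60 (SE 0.10, adjusted p = 4.60e-04), and ADAM10, which sheds the ectodomain of CDH1 and CDH2, rose by 0.47 (SE 0.12, adjusted p = 0.00668). PTPRK, a receptor phosphatase at cell contacts, fell by 0.45 on the log2 scale (log2 change -0.45, SE 0.08, adjusted p = 0.00135). Among nectins 7 of 8 genes did not pass. NECTIN1 rose by 1.51 (SE 0.39, adjusted p = 0.00899), with plastic raw intensities (22.3 and 73.7) within the noise. Of other genes with cadherin repeats, CLSTN1 was higher (log2 change with the floor 1.58, plastic raw intensities within the noise), and CLSTN3 and DCHS2 were lower (log2 changes -0.81 and -0.38). Over all partner lists, 15 of 68 genes on the array were higher (22.1%) and 17 lower (25.0%), near the 24.2% and 20.1% of all genes.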

How the data were processed

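RNA of RT4 cells was hybridised to 1-color oligonucleotide arrays, 2 from plastic and 9 from crECM. The deposited series values are log10 values that the authors made by subtracting the noise peak, dividing by its SD and adjusting the arrays by regression. The deposited scanner files hold raw intensity per spot, which was used for noise limits and for the rebuilt values (noise mode subtracted, divided by its SD, with and without a robust regression on the mean array). The software of the regression is not given in the sources used here.

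Values were set to a floor of 3 SD, taken to log2, and tested with limma 3.58.1 (trend, R 4.3.3) on 21480 probes above 3 SD on at least 2 arrays, with Benjamini-Hochberg adjustment over all of them. A gene was read on its brightest probe. No fold is given for genes within the raw noise on both plastic arrays. Members and partner lists were chosen with earlier results of these data known. Values by array are given for CDHR2, PCDH10, PCDH11X, CDH1 to CDH3, the desmosomal cadherins, FAT1, FAT2, CELSR1, CELSR2, called members with at least 2-fold change and no overlap, up to 2 more a subfamily and up to 2 a list in each direction, and further members were named after their values were seen. Promoters came from RefSeq (GRCh38.p14, 73 of 97 genes matched). The fits were tested on simulated data. For CDH7, PCDHA10 and PCDHB16 the deposited and raw values differed on at least 1 array. The number of arrays limits the precision. Alternatives were other scalings, floors, filters, array weights, probe means and each array left out. Centering by identifier field was added after seeing the data.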

Additional observations from a re-analysis of the deposited data

Results flagged for a closer look

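In 18 of 82 members with enough values, 1 crECM array lay farther from the others than Dixon's limit allows, where chance gives about 4.1. That figure takes the arrays as replicates, but they are time points. No share over all genes is given here, so the excess is not a trait of the members. The 12 h array accounts for 5 of these and the day 6 array for 4. At 12 h, CDH26 (43.19 SD), PCDHA3 (60.34 SD) and PCDHGB4 (34.93 SD) were high and CDH5 (15.43 SD) and PCDHGA11 (11.7 SD) low. On day 6, CDH1 (6.374 SD), PCDHB14 (14.04 SD), PCDHB6 (12.27 SD) and PCDHGA3 (6.649 SD) were low. PCDHGB2 was high on day 4 (252.3 SD), CDH23 on day 2 (315.4 SD) and CDH10 on day 7 (51.3 SD). FAT3 on day 9 (5.041 SD), PCDH7 on day 3 (11.12 SD), PCDHB3 on day 1 (13.75 SD) and PCDHGB6 on day 4 (24.47 SD) were low. CDH8 on day 9 and PCDHGB8P on day 2 were at the floor of 3.0 SD. No cause was tested.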

How the results depend on the processing

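Of 983 values of 46 named members under the alternatives, 861 kept direction and call, 87 lost the call, 4 gained it and 31 turned. In the rebuilt values 29 members were higher and 16 lower, and without regression 65 and 0. With 1 array left out, 7 to 19 members were higher and 7 to 30 lower. The fewest, 9 and 7 higher and 11 and 7 lower, came without plastic 1 and without plastic 2. At 12 h, 1 member was higher after quantile normalization and 5 with a floor of 5 SD, and 2 were lower in the rebuilt values. The off-on count was 0 in the rebuilt and in the quantile normalized values. Both began from values set to at least 1 SD, which fixes the count at 0 after quantile normalization. The on-off count was 1 without plastic 2. Without regression the changes turned to 0.26 for CDH1, 1.01 for CDH3, 0.72 for DSG2, 0.78 for DSC1, 1.42 for DSC2, 1.09 for DSC3, 1.38 for FAT1, 1.08 for CELSR2, 0.14 for FAT3, 0.061 for PCDHGB4, 0.54 for PCDHB15, 0.044 for CDH20, 0.050 for PCDHB5, 0.68 for PCDHA13, 0.63 for PCDHB6, 0.71 for PCDHB7, 0.66 for PCDHGA4, 0.34 for PCDHGA2, 0.70 for CDHR1, 0.38 for PCDH20, 0.92 for CDH16 and 0.62 for CDH22. With regression, rebuilt values turned for CDH3 (0.028), DSC2 (0.55), DSC3 (0.023), FAT1 (0.17) and CELSR2 (0.076). Quantile normalization turned CDH3 (0.063) and CELSR2 (0.066), centering by field FAT2 (-0.15), and leaving out 1 array in turn gave CELSR2 changes of -0.13 to 0.012, the latter without plastic 1. The cause was not tested. No paired analysis was possible because the labels give the crECM arrays times, not replicate numbers. Normexp was not run, since the files used hold no background column. Dim members within the raw noise have no reliable level.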
